A study of Bos taurus with 20 samples.

Results

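In bovine muscle stem cells moved to low serum, 81 genes reached a passing high at 48 h and had fallen at least 2-fold again by 96 h. They were chosen from the measured time course itself, out of 14636 genes with enough counts to test and 27607 in the table. The choice used the mean over the 4 libraries of each time point, in CPM (a gene's reads scaled to a common library size of 1000000 after TMM normalisation), with 0.1 added. The 48 h mean had to be the largest of the 5, at least 2 CPM, and at least 2-fold above the means at 0 h and at 96 h. The 24 h mean had to be below 2-fold of the 96 h mean and less than 2-fold below the 0 h mean, and at least 1 read had to be present at 0 h. Rises to 48 h and falls from 48 h are therefore part of the definition. Where counts of edgeR calls are given for them, they describe the members and support nothing.

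Satellite cells are the stem cells of skeletal muscle. When growth factors are withdrawn they leave the cell cycle, switch on muscle regulators, fuse into multinucleated myotubes and then build contractile fibres. Such a programme is known to contain transcripts that are needed for a limited step, commitment or fusion for example, and that decline once myotubes mature. The counts identify genes by Ensembl cattle identifiers alone and the gene table used here pairs 0 of them with a symbol, so no name, role or promoter is given for any of the 81, and the labelled cell type was not checked against marker genes.

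The cells were Belgian Blue satellite cells on collagen-coated flasks, kept in growth medium with 20% fetal bovine serum (0 h) or switched to low-serum differentiation medium (2%) for 24, 48, 72 or 96 h before harvest. PolyA RNA was sequenced from 4 replicates, A to D, at each time point, 20 libraries with 21100797 to 41998509 counts each. The labels put A and B in batch 1 and C and D in batch 2, and the design text calls the replicates biological without saying whether they came from separate animals or cultures. The p-values measure the spread between these libraries, which may be technical. In bulk RNA, fewer cells of a kind and less RNA per cell cannot be told apart. Replicate C had the lowest scaling factor at 24, 48, 72 and 96 h. Without it at 48 h the choice gave 89 genes (79 of the 81 among them), and without it at 96 h 75 genes (71 of the 81). Left out at 24 h or 72 h, it gave 83 genes (all 81) or 81 genes (80 of the 81).

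The group rose over 2 days and came back only in part. Median CPM over the 81 genes was 0.858 in growing cells, climbed to 6.38 by 24 h and 21.5 by 48 h, and declined to 12.3 by 72 h and 6.85 by 96 h. The median fitted log2 change was 3.82 from 0 h to 48 h, with a range from 1.03 to 10.44, and -1.21 from 48 h to 96 h, with a range from -3.12 to -1. Most members therefore ended above where they began. At 48 h, 65 genes were at least 4-fold and 38 at least 16-fold above 0 h. Only 11 genes were at least 4-fold above both 0 h and 96 h, and 30 lay within 2.2-fold of their 96 h level, close to the limit of the choice.

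The rise was larger on the first day in folds and on the second day in CPM. The median log2 change was 2.53 from 0 h to 24 h and 1.36 from 24 h to 48 h. At 24 h the median gene had gained 34.1% of the CPM it would gain by 48 h, and 32 genes had gained at most 25% while 22 had gained at least 50%. In edgeR's quasi-likelihood test with Benjamini-Hochberg adjustment, 78 of the 81 were called higher at 24 h than at 0 h, where 31.7% of all genes were and 66.2% were called in either direction. The choice favoured this direction, since it bounded the 24 h mean from below and held 0 h at least 2-fold below 48 h. That count is therefore a description too. From 24 h to 48 h, where the choice fixed the direction, 74 were called higher (31.4% of all genes), and 71 were called in both steps. Of 48 h with 0 h and of 96 h with 48 h, all 81 were called in the direction the choice fixed, where 39% of all genes were higher at 48 h and 24.5% lower at 96 h (49.7% changed in either direction at 96 h), so the counts of these 3 contrasts say nothing beyond the choice.

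**Figure D1:**
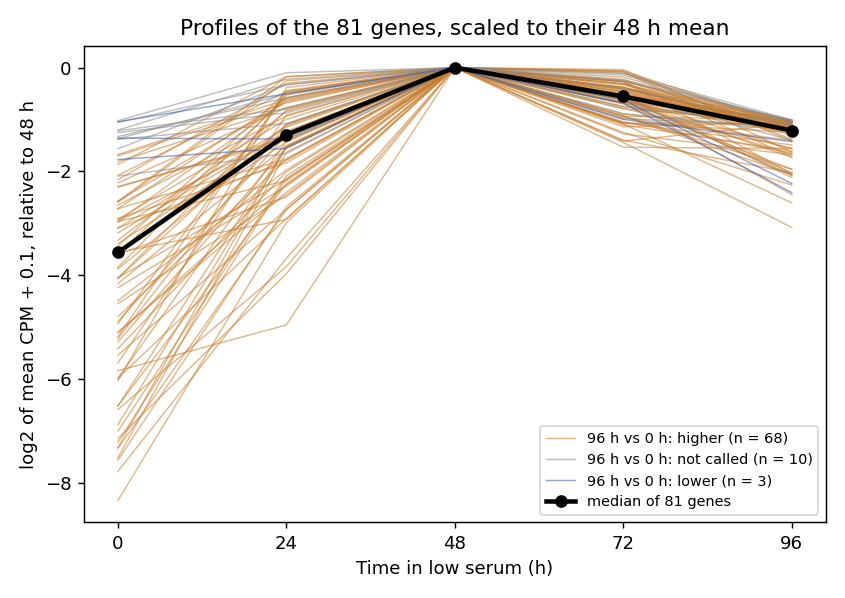
Mean CPM + 0.1 of each of the 81 genes relative to its own 48 h mean (log2 axis) against time in low serum, coloured by the test of 96 h against 0 h, with the median in black. Starting levels spread over several log2 units, while all 81 lines end at least 1 log2 unit below 48 h, as the choice requires; the fitted change from 0 h to 96 h was positive in 76 genes and called higher in 68.

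The members spanned a wide range of abundance at 48 h, from 1.98 to 1195 CPM. At that time 13 genes were at 100 CPM or more, 53 at 10 CPM or more and 16 under 5 CPM. Their share of the counts was 0.0960 ± 0.00754% in growing cells (SD, n = 4, as for the shares that follow). It increased to 0.337 ± 0.0344% by 24 h and 0.613 ± 0.0580% by 48 h. It then declined to 0.376 ± 0.0665% by 72 h and 0.219 ± 0.0135% by 96 h. Without the 3 most abundant members the shares were 0.0591, 0.190, 0.370, 0.227 and 0.127% of counts, which peak at 48 h because every member does by choice.

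The most abundant member, ENSBTAG00000007622, was singled out after its values were seen. It was at 102, 147, 156 and 120 CPM in replicates A to D at 0 h and at 512, 561, 578 and 372 CPM at 24 h. At 48 h it reached 1411, 1281, 1044 and 1045 CPM. At 72 h batch 1 still held 1149 and 1080 CPM and batch 2 681 and 689 CPM, and at 96 h the values were 552, 518, 497 and 604 CPM. The libraries of 48 h lay above those of 0, 24 and 96 h, but those of batch 2 at 48 h lay below those of batch 1 at 72 h.

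**Figure D2:**
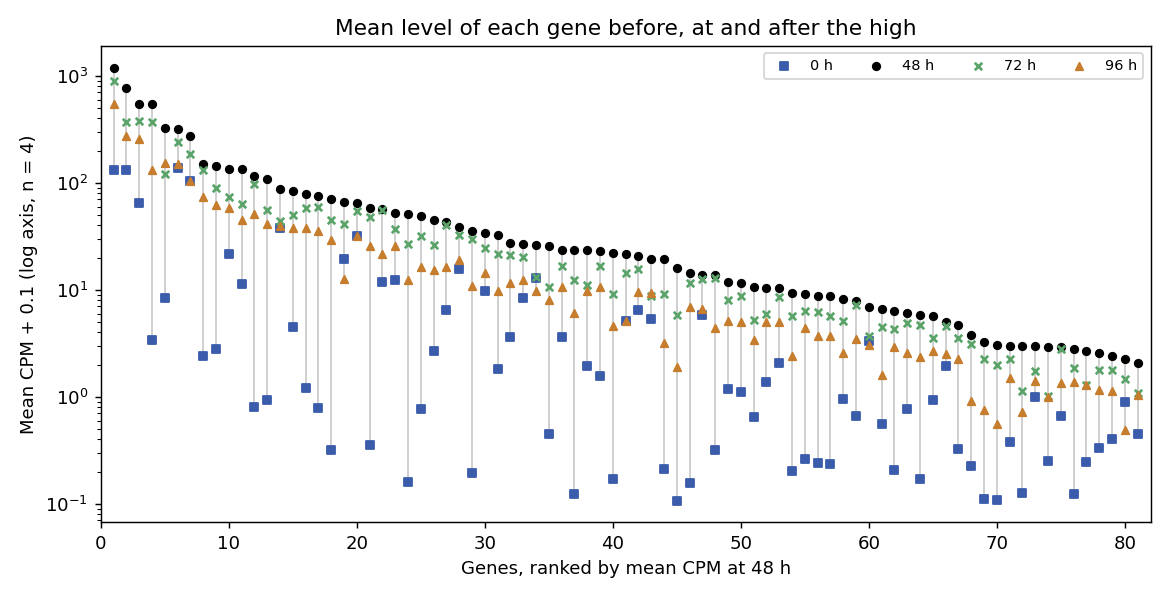
Mean CPM + 0.1 (log axis, n = 4) of the 81 genes at 0, 48, 72 and 96 h, ranked by their 48 h level; 24 h is not drawn and grey lines join the 48 h mean to the lower of the 0 h and 96 h means. Black points (48 h) lie highest by choice. Before the 0.1 is added, the 48 h means run from 1.98 to 1195 CPM and 43 of the 0 h means (blue squares) are under 1 CPM.

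Profiles are described next by starting level, in 3 classes formed after the values were seen and not tested. The 43 genes under 1 CPM at 0 h went from a median of 0.221 CPM through 3.12 CPM at 24 h to 8.07 CPM at 48 h, and stood at 5.08 and 2.60 CPM at 72 and 96 h. Their median log2 rise to 48 h was 5.94 and their median gain by 24 h was 26.8% of the whole. These genes were nearly off in growing cells and kept a median of 34.5% of their gain at 96 h. Of the 43, 3 had at most 3 reads over the 4 libraries at 0 h, so the size of their rise is poorly determined. Others were uncertain as well, for example a gene with 8 reads at 0 h, whose log2 rise to 48 h was 7.87 (SE 0.535).

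The 24 genes between 1 and 10 CPM at 0 h had medians of 3.26, 14.5, 25.3, 18.3 and 10.6 CPM from 0 to 96 h, with a median log2 rise of 2.99. The 14 genes at 10 CPM or more had medians of 26.6, 55.2, 112, 59.5 and 42.2 CPM, with a median log2 rise of 1.94. Genes already well expressed in growing cells thus rose by smaller folds. They kept a median of 18.2% of their gain at 96 h. Fold and starting level share the 0 h value, so the order of the folds follows in part from the measure itself. The share of gain kept uses the 0 h value too, and the choice held 96 h at least 2-fold below 48 h. The most that could be kept was therefore lower the nearer a gene began to its 48 h level. The order of the shares kept thus follows in part from the choice.

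The comparison of 96 h with 0 h asked whether the genes returned to their starting level. The choice did not compare these time points directly, although it held the 96 h mean above a bound set by the 0 h mean. It also held the 24 h mean below 2-fold of the 96 h mean. In 65 members the fitted 24 h level was at least 2-fold above 0 h. For these an end above the start was largely fixed by the choice, so the counts that follow are a description. In the edgeR quasi-likelihood test, 68 of the 81 were higher at 96 h than at 0 h (84%), where 40.2% of all genes were, and 3 were lower (3.7%), where 40.2% of all genes were. In either direction 80.4% of all genes were called. The median log2 change was 2.39 in the group and 0.00 over all genes tested. Of the genes called higher, 63 were at least 2-fold and 30 at least 16-fold above 0 h. Most members were thus still above their start at 96 h, a direction that the choice favoured.

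Batch 1 alone called 67 higher and 3 lower at 96 h than at 0 h, and batch 2 alone 69 higher and 2 lower. Both batches had a part in the choice and no share over all genes is given for them, so these counts are a description too. Of the 14 genes that began at 10 CPM or more, 7 were higher, 2 lower and 5 not called at 96 h. Of the 43 that began under 1 CPM, 41 were higher, 1 lower and 1 not called. These splits by starting level are also a description, with no share of all genes at the same level. The 10 genes not called had log2 rises to 48 h between 1.03 and 2.12. A missed threshold does not show that they had returned exactly.

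4 genes are named by rule, the 2 called higher and the 2 called lower at 96 h than at 0 h that stood out most at 48 h among members of at least 10 CPM. ENSBTAG00000017531 had a single read at 0 h, in replicate A, which was 0.0282 CPM, and 0 in the other 3 libraries. It was at 2.55, 3.17, 4.79 and 3.59 CPM in replicates A to D at 24 h and at 17.6, 15.4, 15.7 and 14.6 CPM at 48 h. At 72 h it had dropped to 5.66, 7.002, 4.92 and 5.49 CPM and at 96 h to 1.49, 2.19, 1.13 and 2.33 CPM. All 4 libraries at 48 h lay above the other 16, and the 96 h libraries above those of 0 h and below those of 24 h. With 1 read at 0 h, the ratio of 96 h to 0 h was 255 and counting error alone allows 45.2 to 10130 (95% interval). Its adjusted p in edgeR's test was 2.66e-11. The 48 h level was 8.76 times that of 96 h, with a 95% counting interval from 7.52 to 10.3.

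ENSBTAG00000004958 rose from 0, 0.235, 0.168 and 0.0366 CPM at 0 h to 2.84, 4.12, 4.49 and 4.48 CPM at 24 h. At 48 h its libraries held 19.4, 21.4, 16.9 and 18.8 CPM. It then fell to 9.56, 13.0, 6.49 and 6.76 CPM at 72 h and 3.41, 3.35, 2.55 and 2.91 CPM at 96 h. The groups of 24 h and 96 h overlapped, while all libraries of 48 h lay above the rest and all of 96 h above 0 h. The log2 change from 0 h to 96 h was 4.63 (SE 0.40, edgeR adjusted p = 1.60e-09). It rests on 17 reads at 0 h and was 5.44 without replicate B and 4.19 without replicate A of that time, still called in each case.

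ENSBTAG00000002313 behaved differently on the first day. Its level was 21.6, 20.1, 16.4 and 19.4 CPM at 0 h and 20.7, 22.3, 26.8 and 20.4 CPM at 24 h, groups that overlapped. At 48 h it stood at 71.7, 67.3, 66.6 and 60.0 CPM and at 72 h at 48.2, 36.5, 38.6 and 41.7 CPM. At 96 h, with 12.8, 14.3, 12.01 and 10.6 CPM, all 4 libraries lay below those of every other time point. The log2 change from 0 h to 96 h was -0.65 (SE 0.11, edgeR adjusted p = 5.97e-06), so this gene ended below its start.

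ENSBTAG00000021474 was at 9.50, 14.3, 15.6 and 11.7 CPM at 0 h and 17.8, 21.4, 19.8 and 15.3 CPM at 24 h. Its 48 h libraries split by batch, with 32.1 and 30.1 CPM in batch 1 and 21.2 and 22.2 CPM in batch 2. So did those of 72 h, with 15.9 and 17.6 against 9.45 and 9.70 CPM, and 96 h gave 10.3, 10.7, 8.67 and 9.33 CPM. The libraries of 0 h and 96 h overlapped. Its log2 change from 0 h to 96 h of -0.40 (SE 0.18) was just past the threshold (edgeR adjusted p = 0.0456). It did not pass in batch 1 alone (-0.19, adjusted p = 0.327), passed in batch 2 alone (-0.60, adjusted p = 0.0034), and was lost when any of 13 single libraries was left out, so its end below the start is uncertain.

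The third gene called lower, ENSBTAG00000040392, was under the level set for naming and was added after its values were seen. Its mean CPM (± SD, n = 4) was 0.788 ± 0.277 in growing cells, 2.18 ± 0.393 after 48 h and 0.384 ± 0.195 after 96 h. Its log2 change from 0 h to 96 h was -0.96 (SE 0.33, edgeR adjusted p = 0.0113). It had 107 reads at 0 h and 40 at 96 h over 4 libraries.

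**Figure D3:**
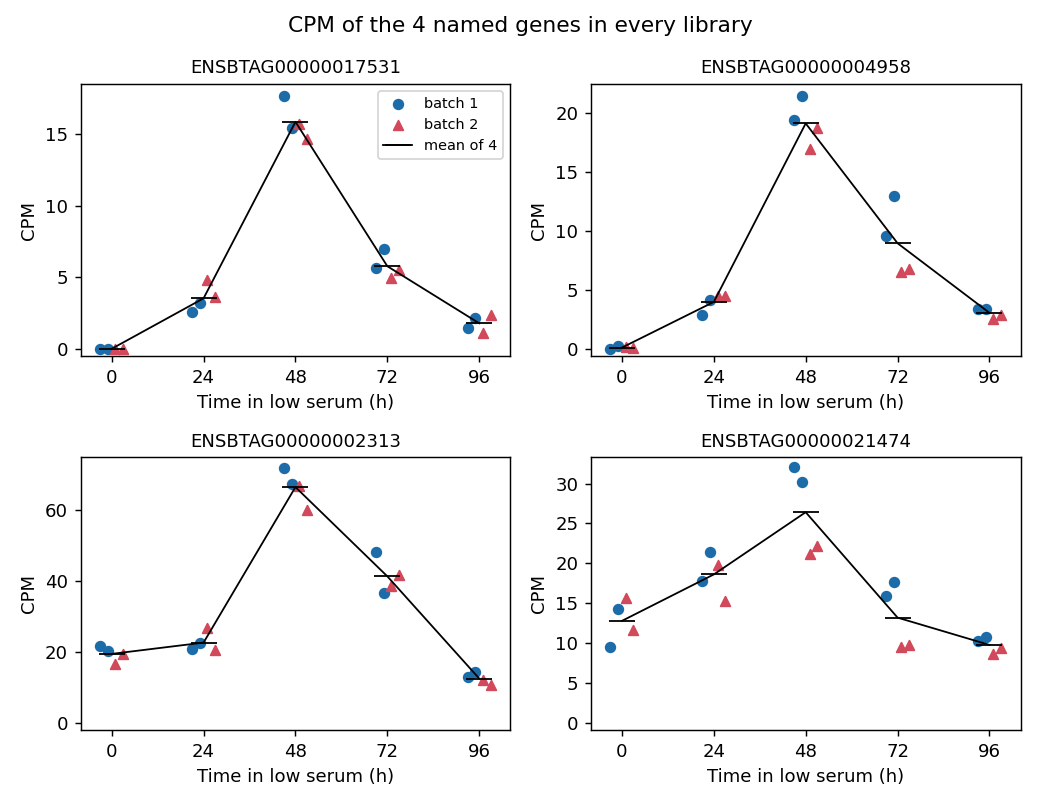
CPM of the 4 genes named by rule in every library against time in low serum, with batch 1 as blue circles, batch 2 as red triangles and black lines through the means of 4; points are shifted sideways for sight. The 2 upper genes start near 0 and end above their start, and the lower ones start at 19.4 and 12.8 CPM on average and end at 12.4 and 9.75 CPM.

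The way down took both remaining days. At 72 h the median member still held 67.1% of its 48 h level, and at 96 h it held 42.7%. In the edgeR test 54 of the 81 were lower at 72 h than at 48 h (20.8% of all genes), a direction that the choice fixed, and 65 were lower at 96 h than at 72 h (18% of all genes), a direction that it favoured. The latter count was 34 in batch 2 alone, 33 lower and 1 higher. Both steps were called in 41 genes, the earlier alone in 13, the later alone in 24 and neither in 3. The fall was thus called on both days in 41 members and on a single day in 37. No share over all genes is given for these combinations, so they are a description. A step that was not called does not show that the level stayed the same on that day.

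The 72 h levels varied widely between members. In 7 genes the 72 h mean was within 10% of the 48 h mean, and in 15 it was already at or below 50% of it. The closest was a gene with a mean of 57.3 ± 3.81 CPM (SD, n = 4) at 48 h, 55.8 ± 2.65 CPM one day later and 21.4 ± 5.31 CPM at the end. At 72 h, 79 genes were called higher than at 0 h (edgeR), where 39.9% of all genes were. The choice favoured this direction by holding 0 h at least 2-fold below 48 h, so the count is a description.

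One member was called higher at 96 h than at 72 h, where 19.3% of all genes were. This gene, ENSBTAG00000013462, was named after its values were seen. It was at 332, 325, 323 and 323 CPM in replicates A to D at 48 h, at 134, 157, 102 and 95.8 CPM at 72 h and at 163, 166, 155 and 136 CPM at 96 h. The 4 libraries of 48 h agreed closely, and those of 72 h and 96 h overlapped. The 72 h libraries split by batch, with 134 and 157 CPM in batch 1 and 102 and 95.8 CPM in batch 2. In the edgeR batch by time test this gene had an unadjusted p of 0.000595 and an adjusted p of 0.505. Its log2 change from 72 h to 96 h was 0.35 (SE 0.10, edgeR adjusted p = 0.0123). This call was lost in batch 1 alone, with library sizes alone and without replicate D at 72 h, each of which left 0 members higher.

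The members differed in how far their single libraries followed the means that chose them. Within each replicate letter, 48 h was the highest of the 5 libraries for all 4 letters in 62 genes, for 3 letters in 15 and for 2 letters in 4. All 4 libraries at 48 h lay above the other 16 in 36 genes, where 1.71% of all genes did. They lay above the 4 at 24 h in 67 members (28% of all genes) and above the 4 at 72 h in 42 (15.9% of all genes). The choice favours all of these counts, which use the libraries that made it and are given as a description.

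To measure rise and fall in libraries that had no part in the choice, the same conditions were applied to each batch alone and the genes were followed in the other batch. Batch 1 gave 96 genes and batch 2 gave 59, with 40 in common, and 5 of the 81 were found in neither. Of the 96, 92 were called higher at 48 h than at 0 h in batch 2 (edgeR, 34% of all genes) and 69 lower at 96 h than at 48 h (14.2% of all genes). In a joint test, which takes for each gene the weaker p of its pair before adjustment, rise and fall were called in 50 of the 96 (52.1%), where 2.41% of all genes were. Of the 59, all 59 were higher at 48 h in batch 1 (36.2% of all genes), 57 were lower at 96 h (21.6%) and 52 passed the joint test (88.1%), where 5% of all genes did. Of the genes picked in either batch, nearly all thus had the rise called in the other batch, and fewer had the fall called.

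The size of the fall was smaller in one direction of this exchange. Genes chosen in batch 1 had a median log2 change of 3.38 from 0 h to 48 h and -0.98 from 48 h to 96 h in batch 2. Genes chosen in batch 2 had 4.28 and -1.36 in batch 1. Over all genes these medians were between -0.02 and 0.00. The 48 h mean was the highest of the 5 in 89 of the 96 (9.88% of all genes) and in 56 of the 59 (10.5%). The whole set of conditions was met again by 40 of each, where 0.403% of all genes met it in batch 2 and 0.642% in batch 1. Both 2-fold limits together were met again by 46 of the 96 (1.26% of all genes) and 46 of the 59 (2.03%).

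**Figure D4:**
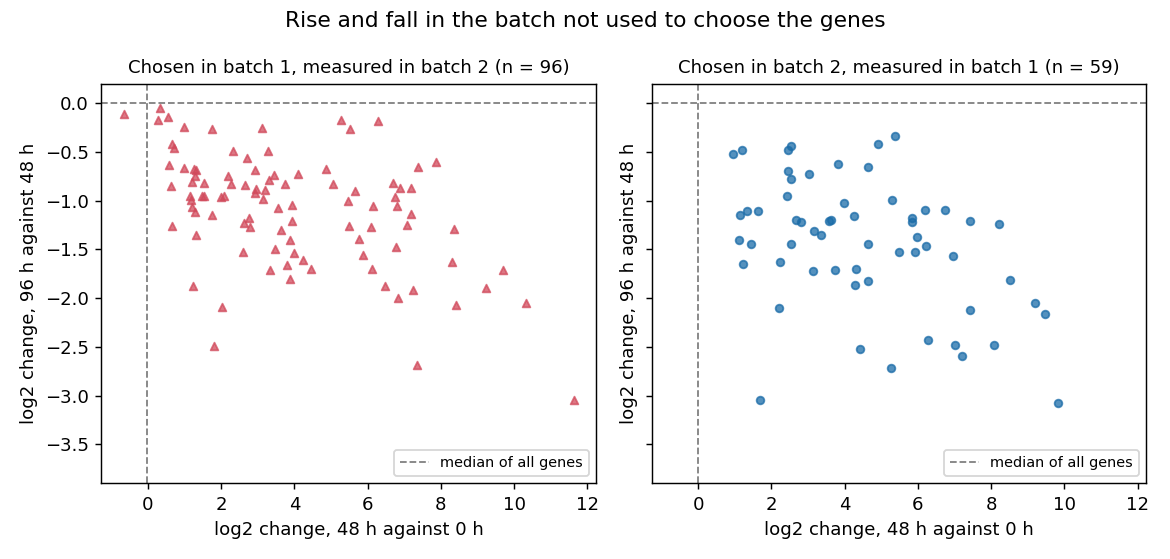
log2 change from 48 h to 96 h against log2 change from 0 h to 48 h, one point per gene, for genes picked in either batch and followed in the other; dashed lines are the medians of all genes tested in that batch. Nearly all points lie right of and below the dashed lines, with 95 of 96 and all 59 points above 0 on the horizontal axis.

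Replicates differed more for these genes than for most. The median biological coefficient of variation was 13.3% in the group and 8.08% over all genes, and 75 of the 81 lay above that latter value. It is edgeR's measure of the spread between libraries of a time point, here with the average batch difference taken out. The comparison was not matched for level, and median CPM at 0 h was 0.858 in the group and 18.5 over all genes. The summed level of the group had a pattern by batch and time. The summed CPM of the 81 genes at 48 h was 7018 and 6568 in batch 1 and 5916 and 5855 in batch 2. At 72 h it was 4733 and 4784 against 3489 and 3628. At 0, 24 and 96 h the batch means were 836 and 863, 2843 and 2842, and 2554 and 2567. The batches therefore lay apart at 48 h and 72 h and close together at the other time points.

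The same was seen gene by gene. At 72 h both libraries of batch 2 lay below both of batch 1 in 52 of the 81 (64.2%), where 28% of all genes did, and the median log2 difference between batches was -0.29 in the group and 0.03 over all genes. At 48 h the count was 42 (51.9%, with 31.8% of all genes) and the median difference -0.17. At 0, 24 and 96 h the median difference was between 0.03 and 0.04. With 2 libraries per batch and time point, no test of a single gene at one time was made.

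Tests of the batches called few members. Averaged over time, 10 of the 81 differed between batches (12.3%), 2 higher and 8 lower in batch 2, where 19.2% of all genes did (edgeR), 10.9% higher and 8.36% lower. It was 20 without replicate C at 24 h and 19 without replicate A at 0 h. It was 6 without any one of replicate B at 0 or 24 h, A, B or C at 48 h, A, C or D at 72 h, or A at 96 h. In the edgeR batch by time test 0 of the 81 were called, where 0.00683% of all genes were, 13 had an unadjusted p under 0.05, where 9.72% of all genes did, and DESeq2 called 1, as did edgeR without replicate B at 0 h or replicate D at 24 h. Without the low-count filter edgeR called 27 of the 81 on the same libraries, so the count depends on that setting. The share of all genes called in that fit is not given, so whether the members stand out there is not known.

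**Figure D5:**
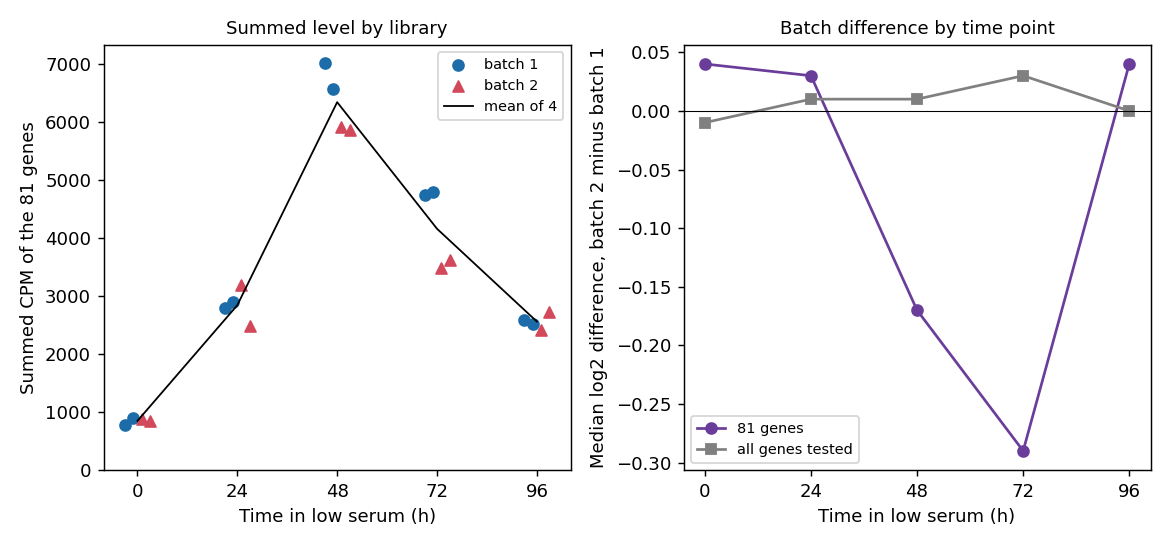
Left, summed CPM of the 81 genes in each library against time in low serum, with batch 1 as blue circles, batch 2 as red triangles and a line through the means of 4; right, the median log2 difference between batches (batch 2 minus batch 1) at each time for the 81 genes and for all genes tested. Batch 2 lies below batch 1 at 48 h and 72 h, by medians of -0.17 and -0.29 in the group.

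The limit that most decided membership was the fall. Of 1467 genes highest at 48 h, 670 were at least 2-fold above 0 h and 154 of these at least 2-fold above 96 h. Of the genes left out, 408 missed only the fall, 36 only the minimum level, 22 only the limit on 24 h, 11 only the rise and 5 only the high at 48 h. The member nearest the limit on the fall had a ratio of 2.00 between 48 h and 96 h and the nearest gene outside had 1.98, with 18.3 and 9.18 CPM at these times. On the rise, the nearest member had a ratio of 2.03 and the nearest gene outside 1.88. On the minimum level, these were 2.08 and 1.99 CPM with the 0.1 included, and for 24 h against 96 h they were 1.93 and 2.04. Genes on either side of the limit on the fall therefore differed by little.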

How the data were processed

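The authors deposited raw read counts per gene, whole numbers with a different total in each library. Per the submitters' processing notes, STAR 2.7 and featureCounts were used with build bosTau9. The sources used here give neither their parameters nor the strand setting or annotation. No lines named no gene, and all 20 columns matched a library by name.

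edgeR 4.0.16 in R 4.3.3 was used. filterByExpr by time point (minimum count 10, minimum total 15) kept 14636 genes, and no library kept under 99.967% of its counts. Libraries were scaled by TMM. All 20 libraries entered a robust quasi-likelihood model with terms for time and batch, and p-values were adjusted over all genes kept, with calls at an adjusted p under 0.05. Standard errors were derived from the F statistic. Within-batch fits used 10 libraries. Log2 CPM used a prior count of 2. Counting intervals are exact conditional binomial 95% intervals and cover counting error only. DESeq2 1.42.0 was an alternative.

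No 2 libraries of a time point agreed within sampling noise (lowest chi-square per gene 3.775). The members, gene lists and tests were chosen with earlier results of these data known. The gene lists, markers and promoter motifs need symbols and were not used. The naming rule took, of members called at 96 h against 0 h, the 2 higher and the 2 lower with the largest ratio of 48 h to the larger of 0 h and 96 h, among those of at least 10 CPM.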

Additional observations from a re-analysis of the deposited data

Results flagged for a closer look

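Dixon's test on 45 groups of 4 libraries found an extreme value in 3, and chance alone gives about 1 in 20. ENSBTAG00000017531 was at 0.02818 CPM in replicate A at 0 h and at 0 in the others, a difference of 1 read. Replicate C at 48 h had a TMM factor of 0.9484, below the 0.9723 to 0.9755 of its group, and at 96 h one of 0.8366, below the 0.8581 to 0.8609 of its group.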

How the results depend on the processing

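Leaving out single libraries in the exchange between batches was added after the data were seen. The choice gave 59 to 96 genes under 8 other settings. With library sizes alone, which moved the median of all genes by -0.40 for 96 h against 0 h, it gave 76 genes, 55 of them among the 81, and of the 81, 64 were higher and 9 lower at 96 h. Without single libraries it gave 66 (without replicate A at 48 h) to 89 genes. Batch 2 alone called 34 of the 81 for 96 h against 72 h, 1 higher and 33 lower. Without the low-count filter, the batch test called 27 and the batch by time test 27, both without a share of all genes. DESeq2 called 1 in the batch by time test. For none of these was the cause tested. When each library was left out in turn, 70 to 72 members were called between 96 h and 0 h, 61 to 68 between 96 h and 72 h and 77 to 79 between 72 h and 0 h. Batch calls then numbered 6 to 20 and batch by time calls 0 to 1. In the exchange between batches the number picked also changed, to 83 to 127 genes in batch 1 and 55 to 74 in batch 2. Of those picked in batch 1, the rise was called in 82 to 112 (88.2 to 98.8%), the fall in 51 to 80 (53.1 to 83.3%) and both in 37 to 69 (38.5 to 71.9%). Of those picked in batch 2, these were 55 to 74 (100% throughout), 50 to 69 (84.7 to 100%) and 48 to 63 (81.4 to 91.9%). The log2 change of ENSBTAG00000021474 also missed the threshold with RLE scaling (adjusted p = 0.0508) and without the batch term (0.0793). The other 3 genes named by rule kept direction and call in all settings, but were chosen on these libraries.

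With replicate letters as a block (replicate block), ENSBTAG00000021474 had a log2 change of -0.38 (edgeR adjusted p = 0.0531) and the count for 96 h against 0 h was 70, 68 higher and 2 lower. The letters were not taken to pair libraries. Deviations from the time means of libraries with the same letter correlated between -0.35 and 0.53, at a median of 0.14, and 22 of the 40 pairs exceeded 0.1.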
